A study of Mus musculus with 12 samples.

Results

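Replication-dependent histone genes encode the bulk histones that package newly copied DNA. They were taken here as every probe set annotated to a single symbol of the Hist1h to Hist4h series or, in current naming, of H1f1 to H1f5 and the numbered H2ac, H2bc, H3c and H4c genes, with the probe set of the highest mean per gene. This gave 25 genes of the 22180 measured. The class of the linker histone H1 had 4 members, H2A had 6, H2B had 8, H4 had 7 and H3 had 0. Of the 25 genes, 20 lie on mouse chromosome 13 and 5 on chromosome 3.

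The arrays came from 6 mouse leukaemias, all carrying the MLL-AF9 oncogene, a fusion found in acute leukaemia. Leukaemias 81, 83 and 85 were labelled Dnmt3b-knockin, an overexpression of the de novo DNA methyltransferase Dnmt3b, and leukaemias 73, 75 and 79 were labelled WT. Each was sorted on c-kit, a receptor found on immature blood cells, and both fractions were measured. This made 4 groups of 3 arrays: knock-in c-kit-positive, WT c-kit-positive, knock-in c-kit-negative and WT c-kit-negative. Titles name bone marrow as the tissue while the source field names spleen. The labels give no age or strain, no promoter for the knock-in, and leave it unsaid if the leukaemia numbers stand for separate mice, so p-values measure the spread between these samples. All values are log2 RMA values (background-corrected, normalized array signals), as deposited. The number of arrays limits their precision.

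Kit followed the sort, with a 2.65-fold higher level in the c-kit-positive arrays (adjusted p = 7.78e-06 with limma, n = 6 arrays per fraction). Dnmt3b did not follow the genotype label, with 6.32 to 6.48 in the knock-in leukaemias and 6.22 to 6.46 in the WT leukaemias (means of both fractions, difference 0.03, 95% confidence interval -0.19 to 0.25, adjusted p = 0.964). Every direction by genotype below therefore rests on the label alone. Array medians ran from 5.56 to 5.71, and arrays of a group correlated at 0.933 to 0.986.

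In dividing cells these genes are transcribed mainly in S phase, when chromatin has to be built on new DNA. Their mRNAs end in a stem-loop in place of a poly(A) tail. The stem-loop-binding protein Slbp holds that end, the U7 small nuclear ribonucleoprotein guides its cleavage, and the activator Npat drives transcription in the histone gene clusters. H2A, H2B, H3 and H4 form the nucleosome core, and H1 binds the linker DNA. Many copies of a class encode nearly the same protein, and near-identical copies can share signal on an array, so the assignment of a value to 1 copy is uncertain throughout.

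RefSeq lists 62 protein-coding genes under these names. A probe set of its own was found for 25 of them, and the other 37, all 12 H3 genes among them, were covered only by probe sets that list several symbols. Those shared probe sets are described after the members. A gene entered the tests when its value was above 4.61, the 25th percentile of the whole table, on at least 3 arrays. This kept 19 members. The 6 below it were H2ac12, H2ac20, H2bc1, H2bc14, H4c2 and H4c8. This refers to their own probe sets, and all but H2bc1 are also listed by shared probe sets.

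The start regions of 23 members were found among the RefSeq windows of GRCm38.p6 (250 bases before to 50 after each gene's start). H2bc21 and H4c14 had none. The promoters of 6 members follow, 200 bases before the start, because 5 of these genes differed between the fractions and H2bc14 is an H2B copy below the filter. H2bc9 lies at chr13:23543445-23543644 (- strand), H2bc12 at chr13:22035621-22035820 (+ strand), H2bc18 at chr3:96269500-96269699 (+ strand), H2bc14 at chr13:21721844-21722043 (+ strand), H1f1 at chr13:23763468-23763667 (+ strand) and H4c17 at chr13:21811546-21811745 (+ strand). Capitals mark, on either strand, the CCAAT box, the octamer ATTTGCAT, the TATA box (TATAAA) and the H1 motif AAACACA.
H2bc9: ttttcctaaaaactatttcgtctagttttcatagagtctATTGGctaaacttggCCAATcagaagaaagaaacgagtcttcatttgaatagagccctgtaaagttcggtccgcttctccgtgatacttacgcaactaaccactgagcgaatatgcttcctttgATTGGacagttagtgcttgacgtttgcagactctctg
H2bc12: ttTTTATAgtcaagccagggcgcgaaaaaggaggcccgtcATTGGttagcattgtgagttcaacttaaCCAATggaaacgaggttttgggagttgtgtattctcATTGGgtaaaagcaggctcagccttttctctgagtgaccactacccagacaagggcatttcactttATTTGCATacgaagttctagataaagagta
H2bc18: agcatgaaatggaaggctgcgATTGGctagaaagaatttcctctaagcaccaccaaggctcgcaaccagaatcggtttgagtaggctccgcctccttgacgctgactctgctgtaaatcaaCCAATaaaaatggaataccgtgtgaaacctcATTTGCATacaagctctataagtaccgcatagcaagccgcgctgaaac
H2bc14: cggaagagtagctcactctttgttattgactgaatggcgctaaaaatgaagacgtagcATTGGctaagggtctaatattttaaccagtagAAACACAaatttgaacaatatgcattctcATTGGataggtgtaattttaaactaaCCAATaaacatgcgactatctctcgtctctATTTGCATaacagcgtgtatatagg
H1f1: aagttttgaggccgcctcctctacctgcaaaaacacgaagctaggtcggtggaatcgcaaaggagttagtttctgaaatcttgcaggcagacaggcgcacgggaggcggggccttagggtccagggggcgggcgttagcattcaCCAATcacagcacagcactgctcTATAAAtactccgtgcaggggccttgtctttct
H4c17: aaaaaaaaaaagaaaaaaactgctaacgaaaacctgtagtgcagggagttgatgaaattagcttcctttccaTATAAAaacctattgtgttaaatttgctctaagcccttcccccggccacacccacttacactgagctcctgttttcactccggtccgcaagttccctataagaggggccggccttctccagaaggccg

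The octamer ATTTGCAT, a motif known from H2B promoters and bound by Oct1, was present in 5 of 7 H2B windows and 3 of 6 H2A windows, and in 0 of 4 H1 and 0 of 6 H4 windows. These counts overlap, since H2ac1 and H2bc1, and likewise H2ac12 and H2bc12, are read in opposite directions from windows that share 220 and 277 bases. The octamer matches of H2ac1 and H2ac12 are those of their H2B partners, which leaves 6 separate places, and matches of the other motifs in the shared bases are also counted for both genes. The octamer occurred in 1.74% of all 32851 windows of the same length. CCAAT was in 18 of 23 member windows (37.4% of all windows), with 1 match among 6 H4 windows. TATAAA was in 16 of 23 (13.6% of all windows). AAACACA, a motif known from H1 promoters, was in 3 of 4 H1 windows and 6 of 23 in all (7.18% of all windows). TGACGT was in 6 of 23 (7.51% of all windows) and TTTGGCGC in 0 of 23 (0.514%). Each motif was searched on both strands, none of them contains another, and a match only describes the letters. Of the 5 H2B genes with the octamer, 3 differed between the fractions (H2bc12 with the match at -30, H2bc18 at -48 and H2bc3 at -90) and 2 were below the filter (H2bc14 at -25 and H2bc1 at -164). Of the H2B genes without it, H2bc9 differed and H2bc22 did not pass. Within the pair H2ac12 and H2bc12, H2bc12 passed the test below, and the own probe set of H2ac12 lay between 2.84 and 3.03 on every array. H2ac12 is also listed, with other H2A genes, by shared probe sets from 3.18 to 3.38 up to 11.41 to 12.36. H2bc14 is listed by a shared H2B probe set at 11.71 to 12.85 and by others at 6.81 to 8.04. Low values of their own probe sets therefore do not show that these genes were silent.

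C-kit-positive cells had higher levels of 12 histone genes than c-kit-negative cells over both genotypes, by 1.44-fold to 2.56-fold, and a lower level of 1. The 12 came from all 4 measured classes: H1f1, H1f2 and H1f5 of H1, H2ac10, H2ac15 and H2ac21 of H2A, H2bc3, H2bc9, H2bc12 and H2bc18 of H2B, and H4c12 and H4c17 of H4. Among all genes tested, 5.84% were higher and 2.41% lower (1118 and 462 of 19152, adjusted p under 0.05 with limma). Among the 19 members tested, 10 had every c-kit-positive array above every c-kit-negative array, beside 2.13% of all genes tested. All 10 are among the 12, which were picked for being higher in c-kit-positive cells. With the leukaemia as a replicate block, 13 were higher and 1 lower, beside 13% and 6.61% of all genes. The median difference was 0.64 over the 19 members tested and 0.31 over all 25 measured, against -0.03 over all genes tested. By class, the medians of tested members were 0.85 for H1, 0.98 for H2A, 0.65 for H2B and 0.20 for H4. Over all measured members they were 0.85, 0.60, 0.28 and 0.02 in that order, so the order of the classes depends on the filter. The H2B medians include H2bc9, described below. Because the arrays hold sorted cells in bulk, a change in the share of cells and a change in RNA per cell cannot be told apart.

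**Figure D1:**
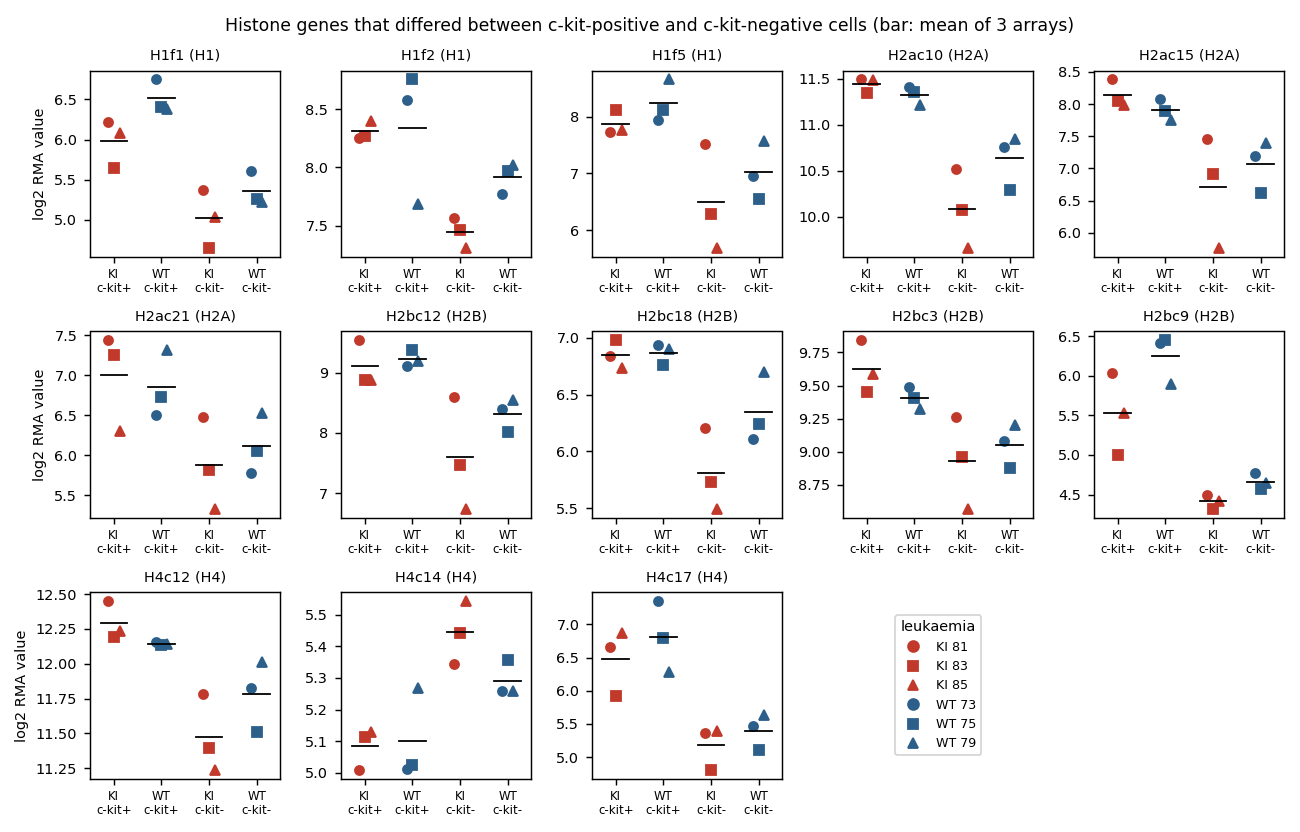
Log2 RMA values of the 13 histone genes past the threshold between the c-kit fractions over both genotypes, by group. Points are arrays, their shape and colour give the leukaemia, and bars are means of 3 arrays. In 10 of the genes every c-kit-positive array lies above every c-kit-negative array.

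H2bc9 (probe set 17291177), an H2B gene, had 6.04, 5.01 and 5.53 in c-kit-positive cells of knock-in leukaemias 81, 83 and 85, and 6.42, 6.45 and 5.90 in those of WT leukaemias 73, 75 and 79. In c-kit-negative cells it had 4.50, 4.31 and 4.42 in the knock-in and 4.77, 4.58 and 4.64 in the WT leukaemias. All 6 c-kit-positive arrays lay above all 6 c-kit-negative arrays, and 4 of the c-kit-negative values were below the filter. The c-kit-positive cells had a 2.56-fold higher level (difference 1.35 on the log2 scale, SE 0.15, adjusted p = 0.000265 with limma). It entered the test only through its c-kit-positive arrays, so its place in the count was favoured by the filter. Without it the count is 11, with 9 whose fractions did not overlap and a median of 0.62 over the other 18 tested. With the replicate block and without H2bc9, 12 were higher and 1 lower.

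H4c17 (probe set 17285687), an H4 gene, had 6.66, 5.92 and 6.87 in c-kit-positive knock-in cells and 7.35, 6.79 and 6.29 in c-kit-positive WT cells. The c-kit-negative values were 5.36, 4.80 and 5.39 in the knock-in and 5.46, 5.11 and 5.63 in the WT leukaemias. The fractions did not overlap, although leukaemia 79 had a gap of 0.66 against 1.89 in leukaemia 73. The difference was 1.35 (SE 0.20, adjusted p = 0.00169 with limma).

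H1f1 (probe set 17285879), a linker histone gene, had 6.22, 5.64 and 6.08 in c-kit-positive knock-in cells and 6.75, 6.41 and 6.38 in c-kit-positive WT cells. Its c-kit-negative values were 5.37, 4.65 and 5.04 in the knock-in leukaemias and 5.61, 5.26 and 5.22 in the WT leukaemias. Each leukaemia showed nearly the same gap, from 0.85 in leukaemia 81 to 1.16 in leukaemia 79, with a difference of 1.05 (SE 0.14, adjusted p = 0.000848). This was the smallest spread between leukaemias (SD 0.12) among the 12 genes. H1f5 (probe set 17291005) had a wide spread instead, from 0.20 in leukaemia 81 to 2.09 in leukaemia 85 (difference 1.29, SE 0.27, adjusted p = 0.0109). H1f2 (probe set 17285859) was higher in c-kit-positive cells of 5 leukaemias, by 0.68 to 1.09, and lower by -0.34 in leukaemia 79 (difference 0.64, SE 0.15, adjusted p = 0.0193). The remaining linker gene, H1f3, had 0.31 (adjusted p = 0.0704), which passed with the leukaemia as a replicate block (adjusted p = 0.0277) and under both other scalings of the arrays.

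Of the H2A genes, H2ac10 (probe set 17285819) had 11.49, 11.34 and 11.49 in c-kit-positive knock-in cells and 11.41, 11.35 and 11.21 in c-kit-positive WT cells. It had 10.52, 10.07 and 9.66 in c-kit-negative knock-in cells and 10.76, 10.29 and 10.84 in c-kit-negative WT cells. The c-kit-positive arrays lay close together in both genotypes, and the c-kit-negative arrays spread over a wider range below them (difference 1.02, SE 0.13, adjusted p = 0.000867). H2ac15 (probe set 17291001) had the widest range of the class, from 5.76 in c-kit-negative leukaemia 85 to 8.39 in c-kit-positive leukaemia 81 (difference 1.13, adjusted p = 0.0100). H2ac21 (probe set 17400539) had 0.93 (adjusted p = 0.0298), while its second probe set stayed between 4.29 and 4.55 on every array. H2ac1 had differences between -0.25 and 0.24 in 5 leukaemias and -1.26 in leukaemia 85, and did not pass.

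Among the other H2B genes, H2bc12 (probe set 17285742) had 9.54, 8.88 and 8.88 in c-kit-positive knock-in cells and 9.11, 9.37 and 9.19 in c-kit-positive WT cells. The c-kit-negative values were 8.59, 7.47 and 6.73 in the knock-in and 8.39, 8.01 and 8.55 in the WT leukaemias. All c-kit-positive arrays were higher than all c-kit-negative ones, with a gap of 0.65 in leukaemia 79 and 2.15 in leukaemia 85 (difference 1.21, SE 0.25, adjusted p = 0.00989). H2bc18 differed by 0.78 (adjusted p = 0.00292) and H2bc3 by 0.53 (adjusted p = 0.0145). H2bc21 and H2bc22, which passed the filter, differed by -0.44 to 0.25 and -0.11 to 0.21 over the leukaemias, with no common direction.

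H4c12 (probe set 17290999) had 12.45, 12.19 and 12.23 in c-kit-positive knock-in cells, 12.16, 12.14 and 12.14 in c-kit-positive WT cells, 11.78, 11.40 and 11.24 in c-kit-negative knock-in cells, and 11.82, 11.51 and 12.01 in c-kit-negative WT cells. The fractions did not overlap, with a difference of 0.59 (SE 0.11, adjusted p = 0.00543). H4c14 was the member that was lower in c-kit-positive cells, by -0.27 (adjusted p = 0.0329). That call was lost when arrays were centred on their medians or normalized again by quantiles (highest adjusted p = 0.0606). H4c14 comes 13th by size and is named for its direction, after its values were seen. H4c9 ran from -0.16 to 0.53 over the leukaemias and H4c1 lay below 0 in all 6, down to -0.45. Neither passed.

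Without leukaemia 73 or 75 the count fell to 6, and without leukaemia 83 to 8. The shares of all genes called in these fits are not given, so the falls are not shown to be particular to histone genes. H1f1, H2ac10, H2bc9, H2bc18, H4c12 and H4c17 passed without each leukaemia in turn. H1f2, H1f5, H2ac15, H2ac21, H2bc3, H2bc12 and H4c14 each lost the call without 73 and without 75. H1f5, H2bc12, H1f2, H2ac21 and H4c14 also lost it without 83, H1f2 and H4c14 without 85, and H2ac21 without 79. Their highest adjusted p in these fits was 0.0735 to 0.18.

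**Figure D2:**
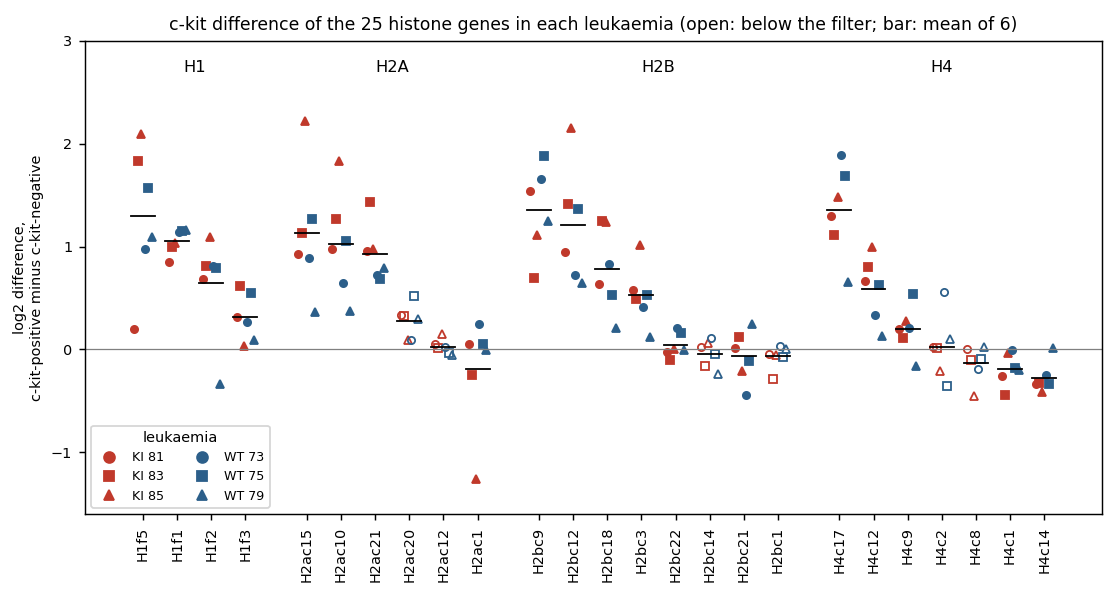
Log2 difference between the c-kit-positive and the c-kit-negative array of each leukaemia for the 25 histone genes, by class and ordered by mean. Points are leukaemias, open symbols are the 6 genes below the filter and bars are means. The differences of 13 genes lie above 0 in all 6 leukaemias, among them H2ac20 below the filter (0.09 to 0.52), and H4c2 below the filter spans -0.35 to 0.56.

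Counted per leukaemia, 13 of the 25 members were higher in the c-kit-positive array of all 6 leukaemias, of which 12 are among the 19 tested. The share was 13% among all genes tested. Leukaemia 79 had the smallest difference for H1f2, H2ac10, H2ac15, H2bc3, H2bc12, H2bc18, H4c12 and H4c17. Leukaemia 85 had the largest for H1f2, H1f5, H2ac10, H2ac15, H2bc3, H2bc12 and H4c12. The c-kit-negative array of leukaemia 85 held the lowest value of the 12 arrays for H1f2 (7.31), H1f5 (5.68), H2ac10 (9.66), H2ac15 (5.76), H2ac21 (5.32), H2bc3 (8.57), H2bc12 (6.73), H2bc18 (5.49) and H4c12 (11.24). Over the 12 arrays, the 66 pairs of the 12 genes correlated with a median Pearson r of 0.81, from 0.50 for H1f2 with H2ac21 to 0.98 for H2ac10 with H4c12. With group means removed the median was 0.47 (-0.38 to 0.95). The 12 genes were picked for being higher in c-kit-positive arrays, which by itself raises the median of 0.81. These arrays share their leukaemias, and the values are a description.

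Within the knock-in leukaemias, 9 of the 19 tested genes were higher in c-kit-positive cells and 0 lower, beside 1.13% and 0.752% of all genes tested. The count without H2bc9, which was below the filter on all 3 c-kit-negative knock-in arrays, is 8. H2bc12 had 1.505 (adjusted p = 0.0454), H2ac15 1.43 (0.0438), H2ac10 1.36 (0.00331), H4c17 1.30 (0.0325), H2bc9 1.11 (0.0171), H2bc18 1.04 (0.00968), H1f1 0.96 (0.0233), H4c12 0.82 (0.0138) and H2bc3 0.70 (0.0471). H2ac15, H2bc12 and H2bc3 lost these calls without a filter (adjusted p = 0.0511 to 0.0534), with arrays centred on their medians (0.0765 to 0.0796) and with trend and robust settings in limma (0.0512 to 0.0851). The count was 1 without leukaemia 83, 2 without 85, 4 without 75, and 3 when only these 6 arrays were fitted. The shares of all genes called in those fits are not given, so these counts are not set against them. With the replicate block 12 were higher and 1, H4c14, was lower (5.95% and 2.75% of all genes). Without H2bc9 the block gave 11 higher and 1 lower. The median over the tested members was 0.86.

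Within the WT leukaemias, 3 of 19 were higher in c-kit-positive cells and 0 lower, beside 0.397% and 0.371% of all genes tested. Without H2bc9, favoured by the filter as above, the count is 2. H2bc9 had 1.59 (adjusted p = 0.00453), H4c17 1.41 (0.0426) and H1f1 1.15 (0.0201). The median over the tested members was 0.42. With the replicate block the count was 9 (7.96% of all genes), and 8 without H2bc9. In fits without the block it was 0 without leukaemia 73 or 75, 6 without 81 and 5 without 85. The shares of all genes called with a leukaemia left out are not given, so these counts are not set against them. H4c17 also lost its call with arrays centred on their medians (adjusted p = 0.0545) and with trend and robust settings (0.0505).

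The difference between the genotypes in these gaps was tested directly. The interaction passed for 0 members and 0 of 19152 genes with limma. At an unadjusted p under 0.05 it held 1 member, H2ac10, and 427 genes (2.23%). H2ac10 had a gap of 0.98, 1.27 and 1.83 in the knock-in leukaemias against 0.64, 1.06 and 0.37 in the WT leukaemias, an interaction of 0.67 (95% confidence interval 0.09 to 1.25, adjusted p = 1 with limma). H4c12 had 0.46 and H2bc18 0.52, at adjusted p = 1 each. The larger number of calls in the knock-in leukaemias is thus not shown to differ from that in the WT leukaemias.

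Between the genotypes, 0 of 19 histone genes differed with limma in c-kit-positive cells, in c-kit-negative cells or over both fractions, beside 0.141%, 0.0627% and 0.0261% of all genes tested. An unadjusted p under 0.05 was reached by 2, 3 and 2 members in these comparisons, in that order, against 9.89%, 6.1% and 8.37% of all genes tested. The medians of the tested members were -0.02, -0.25 and -0.06, and those of all genes 0.014, -0.0026 and 0.010. Without leukaemia 85 the median in c-kit-negative cells was -0.02.

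In c-kit-positive cells H2bc9 averaged 5.52 ± 0.52 in the knock-in and 6.26 ± 0.31 in the WT leukaemias (SD, n = 3 each), a difference of -0.73 (95% confidence interval -1.19 to -0.27, adjusted p = 0.223 with limma). The groups overlapped through leukaemia 81 at 6.04 and leukaemia 79 at 5.90. H1f1 averaged 5.98 ± 0.30 in the knock-in and 6.51 ± 0.21 in the WT leukaemias, a difference of -0.53 (adjusted p = 0.370), and its groups did not overlap, as for 9.88% of all genes tested in that direction. Groups also did not overlap for H4c12, higher in the knock-in leukaemias (12.19 to 12.45, against 12.14 to 12.16 in WT), as for 7.56% of all genes tested. H2bc3 had 0.22 (adjusted p = 0.714).

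In c-kit-negative cells H2bc18 averaged 5.81 ± 0.36 in the knock-in and 6.35 ± 0.31 in the WT leukaemias, -0.54 (95% confidence interval -0.93 to -0.15, adjusted p = 0.706). H2ac10 had -0.55 (adjusted p = 0.753) and H1f2 -0.47 (adjusted p = 0.812). Groups did not overlap for H1f2 and H2bc9, both lower in the knock-in leukaemias, as for 4.66% of all genes tested, and for 0 members in the other direction (4.22%). H2bc9 was below the filter on all 3 knock-in arrays of this fraction. Leukaemia 81 stood apart from the other knock-in leukaemias here. H2bc12 had 8.59 in leukaemia 81 and 7.47 and 6.73 in leukaemias 83 and 85, against 8.01 to 8.55 in the WT leukaemias. Without leukaemia 81, H2bc12 was lower in knock-in cells in the c-kit-negative fraction (adjusted p = 0.0387 with limma) and over both fractions (0.0469). H2bc9 was then lower in the c-kit-positive fraction (0.0446). Each leukaemia was left out in turn, and a histone gene gained a genotype call only without 81. The share of all genes called without 81 is not given, so these genotype calls cannot be set against it. Leukaemia 81 had the highest knock-in values of these genes in those fractions, so its removal widens the difference. These calls therefore do not show a genotype difference.

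Over both fractions the smallest p belonged to H2bc9 at -0.49 (adjusted p = 0.431), H1f1 at -0.44 (0.538) and H2bc18 at -0.28 (0.628). Groups did not overlap for H2bc9 and H1f1, both lower in the knock-in leukaemias, as for 7.45% of all genes tested in that direction, and 0 members were higher without overlap (5.52%).

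**Figure D3:**
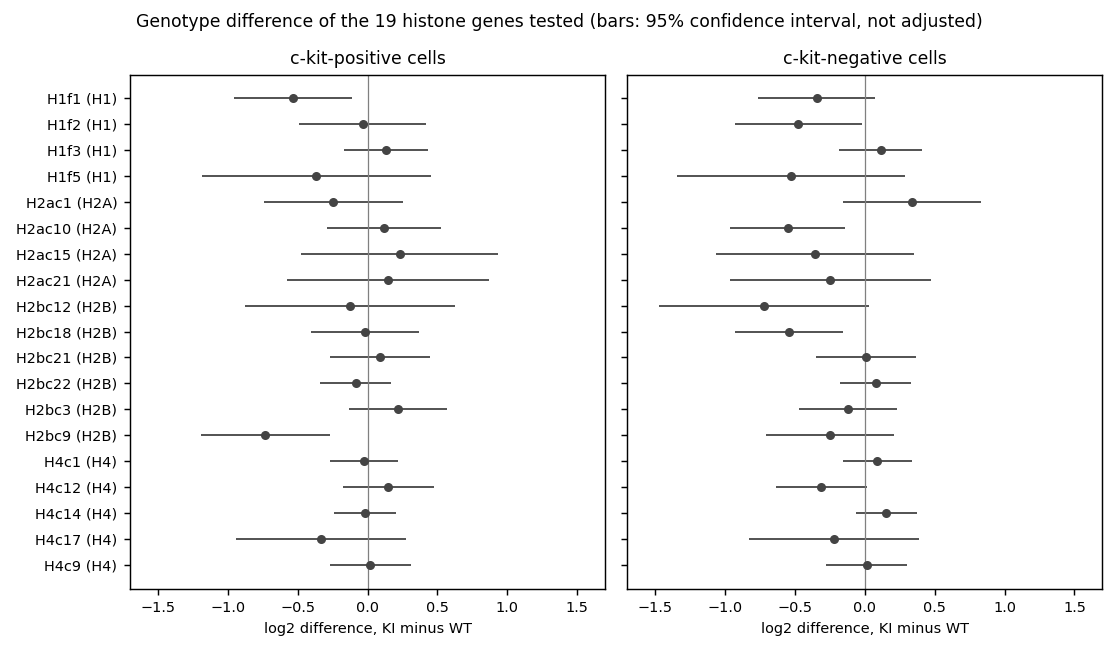
Log2 difference between knock-in and WT leukaemias for the 19 histone genes tested, in c-kit-positive cells on the left and c-kit-negative cells on the right, with unadjusted 95% confidence intervals (3 arrays per group). No gene passed after adjustment, and H2bc9 in c-kit-positive cells has the largest difference of that panel, -0.73.

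A further 37 probe sets list several of these genes, 11 listing H2A genes, 8 H2B, 12 H3, 5 H4 and 1 H1 and H2B genes together. A member with its own probe set is listed by 19 of them, so their values cannot be given to the genes that lack one. They were tested in a fit over all 32285 probe sets above the filter, a choice made after the annotation was seen. Of the 37, 27 were above the filter, and 3 pairs had identical values on every array. Over both genotypes, 14 of the 27 were higher in c-kit-positive cells and 0 lower, beside 2.57% and 1.07% of all probe sets. By class these were 7 of 9 H2A, 4 of 8 H2B, 1 of 5 H3 and 2 of 4 H4 probe sets. All 3 identical pairs were among them, and with each pair counted once 11 of 24 were higher (5 of 7 H2A, 3 of 7 H2B). Of the 27, 4 entered the test only through their c-kit-positive arrays, an H2A and 3 H4 probe sets, which favoured their calls. Of these, the H2A probe set (3.62 to 4.10 in c-kit-negative cells) and 1 H4 probe set (3.92 to 4.18) are counted as higher. Without the 4, and with each pair once, 9 of 20 were higher: 4 of 6 H2A, 3 of 7 H2B, 1 of 5 H3 and 1 of 1 H4. The largest difference was 1.63 for an H2A probe set (adjusted p = 0.0149), and an H4 probe set that also lists members had 0.92 (adjusted p = 0.00208). The H3 probe set past the threshold had 8.42 in c-kit-positive and 7.92 in c-kit-negative cells, a difference of 0.50 (adjusted p = 0.0253). The other 4 H3 probe sets tested had -0.07 to 0.46, and 7 of the 12 were below the filter. In the knock-in leukaemias alone 4 of 27 were higher and in the WT leukaemias 0 (0.406% and 0.0527% of all probe sets). Between the genotypes 0 of 27 passed with limma. Of all probe sets, the share higher was 0.0124% in c-kit-positive cells, 0.0217% in c-kit-negative cells and 0.00619% over both, and the share lower was 0.0124%, 0% and 0% in that order.

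**Figure D4:**
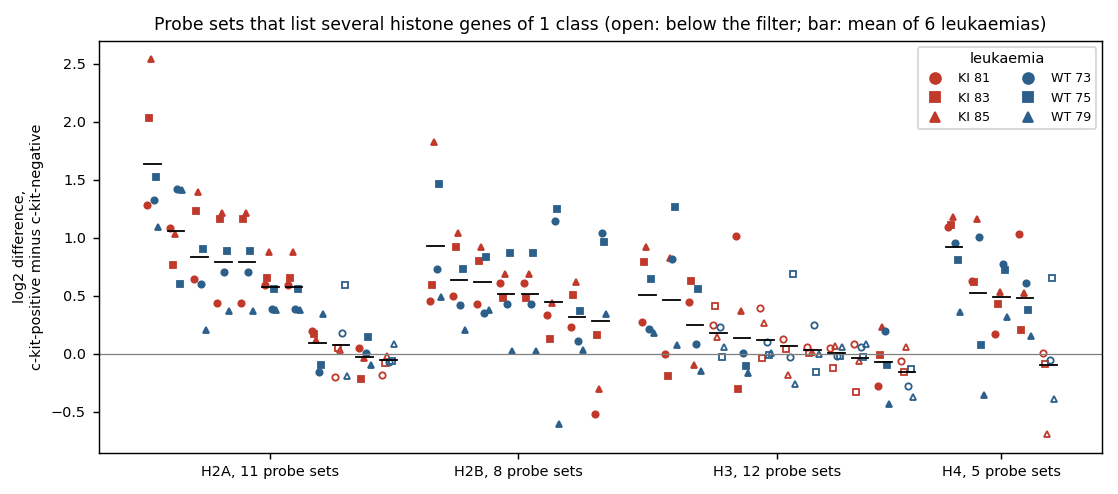
Log2 difference between the c-kit-positive and the c-kit-negative array of each leukaemia for the 36 probe sets that list several histone genes of a single class, ordered by mean within a class. Points are leukaemias, open symbols are probe sets below the filter and bars are means. Most H2A, H2B and H4 probe sets lie above 0, and most H3 probe sets lie near 0 and below the filter.

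Genes of the cell cycle moved with the histone genes between the fractions. The mean z-scored profile of the 19 tested members was correlated with each tested gene outside the members over the 12 arrays. The 10 genes with the highest Pearson r were H2ax (0.98), Tk1 (0.97), Cdk1 and Ckap5 (0.96 each), and Neil3, Sumo2, Fancd2, Nuf2, Plk1 and Aurkb (0.95 each). H2ax is a histone variant of the DNA damage response, Tk1 makes thymidine monophosphate, Cdk1 drives entry into mitosis and Aurkb is a mitotic kinase. The median correlation to this profile was 0.90 over 38 mitosis genes and 0.80 over 48 S phase genes, against -0.14 over all other genes tested. It was also 0.80 over 6 immature myeloid markers and 0.79 over 30 histone chaperone genes, so the likeness is not particular to the cell cycle. Group means were kept in these correlations, so genes higher in c-kit-positive cells tend to score high. The profile includes H2bc9, which the filter favoured, and was not made without it.

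Of 48 S phase genes tested, 30 were higher in c-kit-positive cells over both genotypes and 0 lower, with a median of 0.49. Over all genes tested, 5.84% were higher and 2.41% lower, with a median of -0.03. Tk1 had 0.93, the ribonucleotide reductase subunits Rrm2 and Rrm1 0.79 and 1.11, and the replication initiation factor Mcm10 0.49 (adjusted p = 0.00101 to 0.00282 with limma). All but 1 of 38 mitosis genes were higher, 37 in number, with a median of 0.90. Kif4 had 0.78, Ect2 1.23, Prc1 0.97 and Aurkb 1.14. Whether the histone genes followed the share of cycling cells was not tested.

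**Figure D5:**
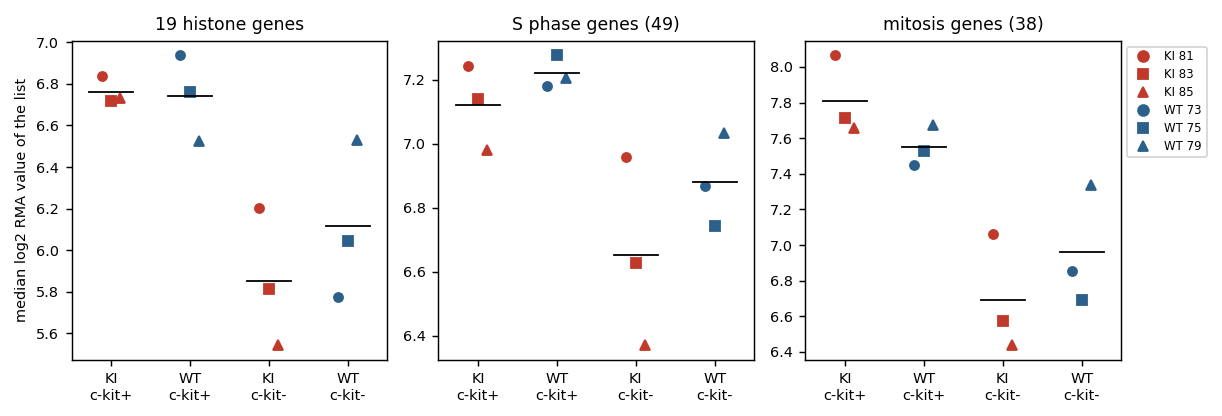
Median log2 RMA value per array of the 19 histone genes tested, 49 S phase genes and 38 mitosis genes, by group. Points are arrays and bars are means of 3. In each panel the c-kit-negative array of leukaemia 85 is the lowest, and leukaemia 79 has the highest c-kit-negative value.

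Of 40 genes of histone mRNA processing, 9 were higher in c-kit-positive cells and 0 lower, with a median of 0.27. Beside each list of this paragraph stand the shares over all genes tested, 5.84% higher and 2.41% lower. Npat had 0.51 (adjusted p = 0.00484), the cleavage factor subunit Fip1l1 0.38, the Sm protein Snrpd3 0.47 and the scaffold Sympk 0.31 (highest adjusted p = 0.0268). Slbp had 0.46 and did not pass with limma (adjusted p = 0.103), but did with the replicate block (adjusted p = 0.00182). The block raised the count of this list to 24 higher and 1 lower, beside 13% and 6.61% of all genes tested. Of 30 histone chaperone genes, 17 were higher and 0 lower, with a median of 0.49. The H3 and H4 chaperones Asf1b and Asf1a had 1.03 and 0.60, Atrx 0.63 and Rbbp7 0.80 (highest adjusted p = 0.00605). Among 8 listed histone variant genes tested outside the members, 3 were higher and 0 lower: H2ax at 1.20, H2az2 at 0.65 and the centromere variant Cenpa at 0.59. Cenpa is also counted among the mitosis genes, and H2ax is the gene most like the members. In the genotype comparisons 0 genes of these 3 lists, of S phase or of mitosis passed with limma. The shares of all genes tested were 0.141% in c-kit-positive cells, 0.0627% in c-kit-negative cells and 0.0261% over both fractions.

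Markers of maturity moved with the same contrast. Of 6 immature myeloid markers, 5 were higher in c-kit-positive cells and 0 lower (Kit, Mpo, Ctsg, Prtn3 and Elane). For these and the marker counts that follow, the shares over all genes tested were 5.84% higher and 2.41% lower. Kit was fixed by the sort, and without it 4 of 5 were higher. The summed unlogged values of the 5 markers other than Kit were 7256 to 14442 in knock-in and 8019 to 17956 in WT c-kit-positive cells, against 2028 to 5616 in knock-in and 2506 to 6879 in WT c-kit-negative cells. Of 8 late neutrophil markers 6 were lower and 0 higher (Mmp8, Ly6g, Mmp9, Cxcr2, Ltf and Lcn2), with sums of 6708 to 9091 in knock-in and 2665 to 6046 in WT c-kit-positive cells, against 11304 to 12830 in knock-in and 5697 to 9143 in WT c-kit-negative cells. Of 5 monocyte markers 2 were lower, Csf1r and Cd14, and of 3 general blood cell markers Ptprc and Itgam were lower. Of the erythroid, B cell, T and NK cell, stroma and endothelium, and testis markers, 0 passed with limma. Their part in the histone gene differences was not tested.

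Between the genotypes the late neutrophil markers were higher in the knock-in leukaemias for 2 of 8 genes in c-kit-positive cells and 3 of 8 in c-kit-negative cells, with medians of 1.07 and 1.12. Of all 19152 genes tested, 11 were higher in the knock-in leukaemias in c-kit-positive cells and 11 in c-kit-negative cells. The histone genes had medians of -0.02 and -0.25 in these comparisons, and the part of the markers in them was not tested.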

How the data were processed

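Per the submitters' processing notes, the authors made the deposited log2 values with RMA in Affymetrix Expression Console, with versions not given in the sources used here. Notes and value range both point to a log2 scale. The table held 41345 probe sets on 12 arrays. The platform annotation gave 1 symbol for 23521 of them, several for 1814, and did not list 16010. The Entrez identifiers matched RefSeq genes for all 25 members. Values were used without further normalization.

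Genes above the filter (19152 of 22180) were fitted with limma 3.58.1 in R 4.3.3 (statmod 1.5.0) with 4 group means and default eBayes settings. The genotype comparison over both fractions used leukaemia means, 3 against 3. Tests were two-sided, with Benjamini-Hochberg adjustment over all genes tested and a threshold of 0.05. The fit was checked on simulated data for the c-kit contrast of the WT leukaemias only. Simulated arrays were independent, so the check did not cover arrays that share a leukaemia. Both arrays of a leukaemia share its number in the labels. Their deviations from the group means correlated at 0.279 to 0.601 in all 6 leukaemias. The numbers therefore pair the samples, and a replicate block was fitted as an alternative. For the comparisons of fractions and the interaction, the block was a fixed term per leukaemia, a paired fit. For the genotype comparisons it was a correlation within leukaemias, estimated with limma at 0.353. Other alternatives were no filter, a stricter filter (5.63), median centring, repeated quantile normalization, the mean of a gene's probe sets, eBayes with trend and robust settings, the compared groups alone, each leukaemia left out, and all probe sets in the fit.

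The members and gene lists were chosen with earlier results of these data known. Named were Dnmt3b and Kit, members past the threshold up to 12 per comparison (otherwise the 3 with the smallest p), the member of the highest mean and of the widest range per class, up to 4 list members with the smallest p, and the 10 genes most like the members.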

Additional observations from a re-analysis of the deposited data

How the results depend on the processing

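No called value changed direction under the alternatives run. The count of histone genes higher or lower in c-kit-positive cells of the WT leukaemias, 3, was 9 with the replicate block, 7 with the compared groups alone and 1 with all probe sets in the fit, an alternative chosen after seeing the data. In the knock-in leukaemias the count of 9 was 3 with the groups alone, 3 with all probe sets and 13 with the replicate block. Over both genotypes it was 14 with the block, which added H1f3, and the block changed no call in a genotype comparison or the interaction. The median difference of the tested members moved to 0.71 in the WT leukaemias, 0.98 over both genotypes and 0.37 for the interaction under the stricter filter, and without a filter to 0.32 in the knock-in leukaemias and 0.31 over both genotypes. These filters change which members are tested, and the cause of the other shifts was not tested. With each leukaemia left out, the counts ran from 0 to 6 in the WT leukaemias, 1 to 9 in the knock-in leukaemias and 6 to 13 over both genotypes. In each genotype comparison they ran from 0 to 1. The shares of all genes called in these fits, or with the groups alone, are not given. Medians ran from 0.27 to 0.68 in the WT leukaemias and from -0.27 to -0.024 between the genotypes over both fractions, and in c-kit-positive cells from -0.085 to 0.015. The counts between the fractions in this paragraph keep H2bc9, which the filter favoured. Counts that leave out features favoured by the filter were added after seeing the data. Over every tested member, comparison and other setting (1105 values), 181 calls were kept, 30 lost and 19 gained, the gains mostly with the replicate block or the groups alone. With a leukaemia left out (798 values), 94 were kept, 56 lost and 12 gained. The 3 arrays per group and the shared sequence of histone genes limit the precision of every value.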
